A study of Mus musculus with 18 samples.

Results

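Dbp, Tef and Hlf encode the 3 proline and acidic amino acid-rich basic leucine zipper (PAR bZIP) transcription factors, and Nfil3 encodes a related repressor. Their expression was read from a table of 18349 genes in colon RNA of mice that drank dextran sulfate sodium (DSS) and were then fed strains of a lactic acid bacterium. The 4 genes were chosen by family and found by NCBI gene identifier, with earlier results of these libraries known, so their own values are described without a test. All 4 were among the 13263 genes with at least 1 FPKM (fragments per kilobase, a level corrected for transcript length and library size) in at least 3 libraries. Hlf, the least abundant, reached 1 FPKM in 9 of 18 libraries, and the other members did so in all 18. For Hlf these were all KO and COM libraries and WT 1, so it passed only through the groups where it was highest. In group means of FPKM, Dbp and Tef were lowest in untreated mice and highest in mice given 2 of the strains, and Nfil3 ran in the opposite order.

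All mice were male C57BL/6 of wild-type genotype. Control mice (n = 3 libraries) drank water. The other mice drank 2.5% DSS, which damages the lining of the colon, during 7 days. They were then gavaged for 5 weeks with PBS (the DSS group, n = 3) or with a suspension of Lactobacillus plantarum. The strain was ZJ316 in the WT group, ZJ316-KO in the KO group and ZJ316-COM in the COM group, each with n = 4. The letters WT, KO and COM therefore name bacterial strains, not mouse genotypes, and the labels do not say what was deleted or restored in KO and COM. The labels mention no gavage of Control mice and do not give the hour at which colons were taken. Library numbers are not linked to animals, and p-values therefore reflect the spread among these libraries, part of which may be technical. In RNA from whole colon, fewer cells of a type and less RNA per cell cannot be told apart.

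The circadian clock is a transcriptional loop that runs in most cells, those of the colon included. BMAL1 (encoded by Arntl) pairs with CLOCK or NPAS2 at E-box sequences and drives Per and Cry genes, whose products inhibit the pair, and Nr1d1 and Nr1d2, whose products repress Arntl. Dbp, Tef and Hlf are direct outputs of this loop: their proteins bind D-box sequences and activate transcription. NFIL3 (also called E4BP4) binds the same D-box sequences and represses, and its own gene is repressed by NR1D1. In the gut, Nfil3 is also known for the development of innate lymphoid cells and for control of lipid uptake in epithelium.

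The promoters below show what the leading genes carry at the start sites where such inputs could act. They come from RefSeq (GRCm38.p6, the assembly of mm10) and span 300 bases around a start, most of them upstream, in the direction of the gene. Capitals mark motifs: the E-box CACGTG in both Tef windows and, in Nfil3, TGACCT, which is AGGTCA on the opposite strand.
Dbp: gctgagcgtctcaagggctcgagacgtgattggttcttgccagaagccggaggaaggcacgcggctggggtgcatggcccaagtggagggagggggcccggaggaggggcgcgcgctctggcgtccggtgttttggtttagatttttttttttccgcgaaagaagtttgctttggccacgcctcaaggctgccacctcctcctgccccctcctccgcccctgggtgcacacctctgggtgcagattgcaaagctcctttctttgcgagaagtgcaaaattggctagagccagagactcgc
Tef upstream start: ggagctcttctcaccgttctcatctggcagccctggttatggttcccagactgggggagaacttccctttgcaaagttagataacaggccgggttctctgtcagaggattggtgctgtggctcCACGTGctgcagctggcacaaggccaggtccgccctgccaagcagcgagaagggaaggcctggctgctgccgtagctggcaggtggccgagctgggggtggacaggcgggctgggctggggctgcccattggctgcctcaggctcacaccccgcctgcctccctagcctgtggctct
Tef downstream start: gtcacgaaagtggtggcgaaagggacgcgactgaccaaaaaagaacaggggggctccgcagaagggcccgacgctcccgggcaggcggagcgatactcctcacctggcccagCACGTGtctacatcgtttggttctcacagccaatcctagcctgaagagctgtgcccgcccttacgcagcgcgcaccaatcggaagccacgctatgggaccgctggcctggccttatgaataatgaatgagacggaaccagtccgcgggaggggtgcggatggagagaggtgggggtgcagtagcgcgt
Nfil3: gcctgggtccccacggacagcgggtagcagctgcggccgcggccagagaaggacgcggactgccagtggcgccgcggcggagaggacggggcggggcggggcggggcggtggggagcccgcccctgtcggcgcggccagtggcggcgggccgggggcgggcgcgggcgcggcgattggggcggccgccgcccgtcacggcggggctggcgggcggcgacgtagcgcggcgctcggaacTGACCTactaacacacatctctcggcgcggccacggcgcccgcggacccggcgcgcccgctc

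Tef (gene 21685, chr15:81802673-81826863, plus strand) had 2 annotated windows, chr15:81802423-81802722 and chr15:81811164-81811463. Each held 1 E-box, with its first base 127 and 138 bases before the start. Of 32851 windows of 27025 genes, searched on both strands, 7.15% held a CACGTG. The Dbp window (gene 13170, chr7:45704997-45705296, plus strand; gene chr7:45705100-45710203) held none of the motifs searched, which were the E-box, its variant CACGTT (4.68% of windows), the receptor motif AGGTCA (16.3%), the cAMP response element TGACGTCA (1.79%) and the D-box. The D-box was searched as TTATGTAA, TTACGTAA or TTATGCAA, any of which was found in 1.78% of windows. The Nfil3 window (gene 18030, chr13:52980990-52981289, minus strand; gene chr13:52967209-52982878) held the receptor motif AGGTCA, which is not particular to NR1D1, 12 bases before the start. The Hlf window (gene 217082, chr11:90390868-90391167, minus strand; gene chr11:90336535-90390917), not printed, held the cAMP response element TGACGTCA 9 bases before the start. None of the 5 windows held a D-box form. GC content was 81.7% in the Nfil3 window, 67.3% in that of Hlf, 64.0% and 62.0% in those of Tef and 60.3% in that of Dbp, against a median of 52.7%. These matches describe letters and were not measured as binding sites.

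Some libraries stood apart in genes of other tissues. Colon epithelium markers were all above 0 in every library, with sums of 5270 to 22671 FPKM. Summed hepatocyte genes (9 genes, chosen after their values were seen) came to 1592 FPKM in COM 2, 128 FPKM in DSS 1 and at most 15.7 FPKM elsewhere. Summed pancreatic acinar genes (12 genes) came to 24640 FPKM in DSS 1, 8504 FPKM in KO 3 and 4489 FPKM in DSS 3, and to at most 347 FPKM elsewhere. Summed squamous epithelium genes (12 genes) were highest in DSS 2 at 423 FPKM and COM 3 at 392 FPKM. Summed distal Hox genes (7 genes), which mark position along the gut, were 7.33 FPKM in Control 3 and 92.7 FPKM in KO 2, against 217 FPKM or more elsewhere. Summed adipocyte genes (8 genes) came to 404 FPKM in COM 2 and 392 FPKM in Control 3, and to 21.5 to 215 FPKM elsewhere. Their part in the results was not tested, and values without these libraries are given beside the results they change.

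Dbp was the member that differed most between groups. It read 1.01, 1.48 and 1.43 FPKM in the Control libraries and 1.63, 3.04 and 1.08 FPKM in the DSS libraries. In the WT libraries it read 3.80, 3.20, 2.03 and 7.66 FPKM. The KO libraries held 13.7, 11.4, 12.2 and 20.3 FPKM and the COM libraries 19.2, 24.3, 20.2 and 14.6 FPKM. All 8 KO and COM libraries therefore lay above all 10 others, and WT 4 came nearest to them from below. The share of all genes divided in this way was not counted, so nothing is read from this division. Control and DSS overlapped, DSS and WT overlapped, and KO and COM overlapped.

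Group means of Dbp were 1.31 ± 0.258 FPKM in Control (SD, n = 3), 1.92 ± 1.01 in DSS (n = 3), 4.17 ± 2.44 in WT (n = 4), 14.4 ± 4.03 in KO (n = 4) and 19.6 ± 3.98 in COM (n = 4). The COM mean was 15.0 times that of Control and 10.2 times that of DSS. For KO these ratios of means were 11.0 and 7.51. On the log2(FPKM + 1) scale, which understates the change of genes with low values, the difference was 3.14 ± 0.30 (SE) for COM minus Control and 2.71 ± 0.30 for KO minus Control. It was 2.85 ± 0.30 for COM minus DSS and 2.42 ± 0.30 for KO minus DSS. Dbp had the highest log2 difference of the 13263 genes in COM minus DSS and KO minus DSS, and ranked 15 in WT minus DSS. It was chosen with these libraries known, so nothing is read from these ranks. The difference was smaller for WT, at 1.06 ± 0.30 against Control and 0.77 ± 0.30 against DSS, and for DSS minus Control it was 0.29 ± 0.32, less than its error. The difference for WT minus DSS was 0.49 without WT 4 and 0.25 without the acinar-rich libraries. With 1 library left out, that for DSS minus Control ran from 0.03 without DSS 2 to 0.51 without DSS 3. Without the acinar-rich libraries, which leaves DSS 2 alone in its group, it was 0.81. Between strains it was 1.65 ± 0.28 for KO minus WT, 2.08 ± 0.28 for COM minus WT and 0.43 ± 0.28 for COM minus KO.

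Tef followed Dbp with smaller steps from a higher base. Its Control libraries read 3.58, 5.66 and 4.74 FPKM, its DSS libraries 5.88, 7.46 and 4.09 FPKM and its WT libraries 8.12, 6.08, 5.44 and 13.4 FPKM. The KO libraries read 13.4, 10.0, 14.9 and 15.7 FPKM and the COM libraries 19.3, 21.5, 19.7 and 16.9 FPKM. All 4 COM libraries lay above the 14 others, which held for no other member, and its share among all genes was not counted. KO lay above Control and DSS, but its lowest library, KO 2, lay below WT 4. Means were 4.66 ± 1.04 FPKM in Control, 5.81 ± 1.69 in DSS, 8.25 ± 3.59 in WT, 13.5 ± 2.51 in KO and 19.3 ± 1.90 in COM (SD, n as for Dbp). The log2 difference was 1.86 ± 0.24 for COM minus Control, 1.36 ± 0.24 for KO minus Control and 0.50 ± 0.22 for COM minus KO (SE).

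Hlf was low throughout and had the smallest spread. It read 0.69, 0.76 and 0.76 FPKM in Control, 0.53, 0.98 and 0.53 FPKM in DSS and 1.07, 0.77, 0.71 and 0.97 FPKM in WT. KO libraries held 1.12, 1.23, 1.60 and 1.44 FPKM and COM libraries 1.73, 2.13, 1.53 and 1.29 FPKM. As for Dbp, the 8 KO and COM libraries lay above the 10 others, though KO 1 exceeded WT 1 by less than the SD within either group. Nothing is read from this division, because Hlf passed the filter only through these 8 libraries and WT 1. Means were 0.737 ± 0.0404 FPKM in Control, 0.680 ± 0.260 in DSS, 0.880 ± 0.169 in WT, 1.35 ± 0.214 in KO and 1.67 ± 0.356 in COM (SD). The log2 difference was 0.61 ± 0.12 for COM minus Control and 0.67 ± 0.12 for COM minus DSS (SE). It became 0.42 for COM minus DSS and 0.19 for KO minus DSS without DSS 1, DSS 3 and KO 3, the acinar-rich libraries, which leaves DSS 2 alone in its group.

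Nfil3, the repressor, had the opposite order in group means of FPKM. On the log2 scale its difference for DSS minus Control was 0.03 ± 0.29 (SE), less than its error. It read 4.58, 7.15 and 10.8 FPKM in Control, 7.13, 6.23 and 8.68 FPKM in DSS and 4.54, 3.98, 7.13 and 2.10 FPKM in WT. KO libraries held 3.42, 3.47, 3.72 and 3.07 FPKM and COM libraries 2.86, 3.95, 2.23 and 2.57 FPKM. The 8 KO and COM libraries lay below all 6 Control and DSS libraries, while WT reached from the lowest value of the series, in WT 4, into the range of Control and DSS. Means were 7.50 ± 3.12 FPKM in Control, 7.35 ± 1.24 in DSS, 4.44 ± 2.08 in WT, 3.42 ± 0.268 in KO and 2.90 ± 0.744 in COM (SD). The log2 difference was -1.08 ± 0.27 for COM minus Control, -0.88 ± 0.27 for KO minus Control, -1.10 ± 0.27 for COM minus DSS and -0.91 ± 0.27 for KO minus DSS (SE). Control 3, the library with few distal Hox and many adipocyte transcripts, had the highest Nfil3. Without it, DSS 3 and KO 2 the difference was -0.81 for COM minus Control and -0.62 for KO minus Control.

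**Figure D1:**
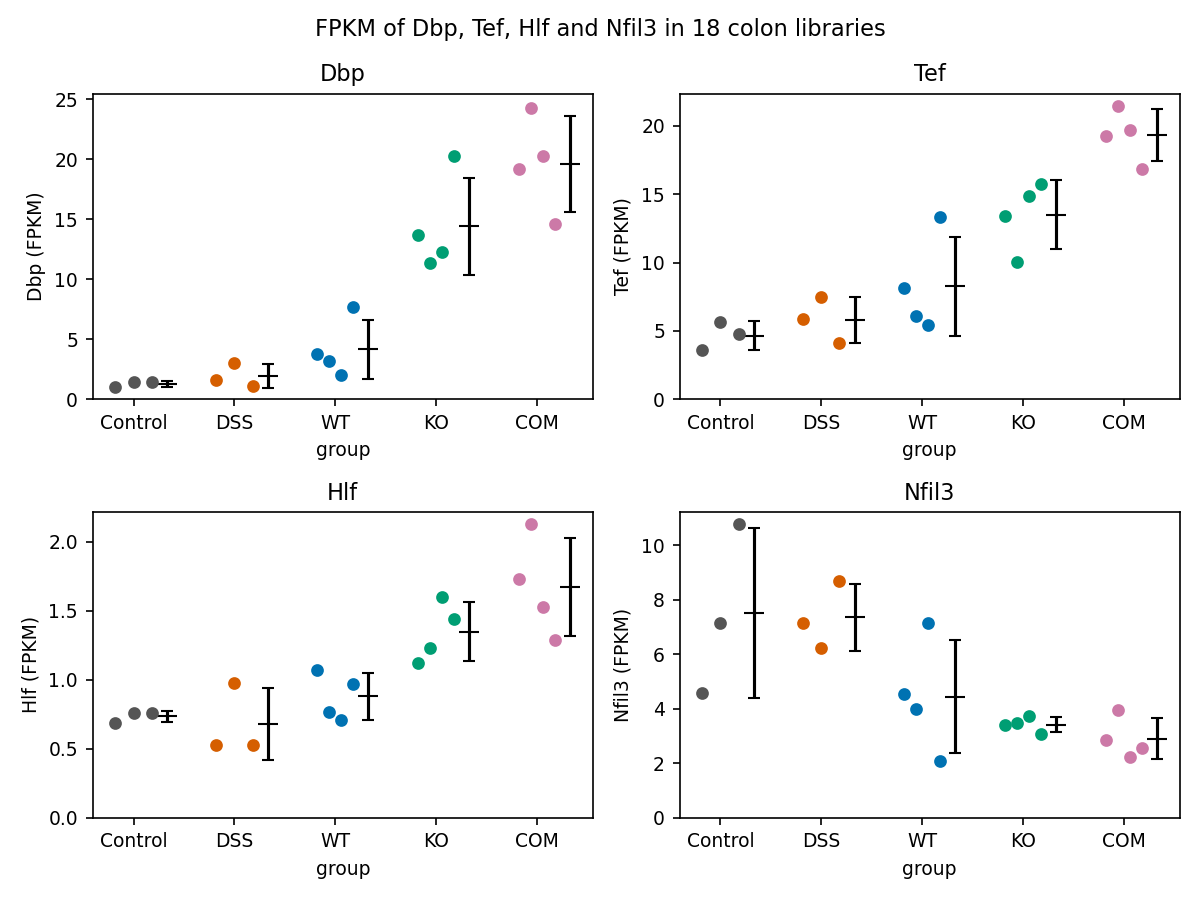
FPKM of each gene (vertical axes, from 0) in each library (points), by group, with the group mean and SD beside the points as a black bar. Dbp and Hlf are higher in all 8 KO and COM libraries than in the 10 others, and Nfil3 is lower there than in the 6 Control and DSS libraries. The share of all genes divided in these ways was not counted.

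Counted over members, the groups did not overlap for 4 of 4 in KO minus Control, COM minus Control, KO minus DSS and COM minus DSS. Over all tested genes, the groups did not overlap upward for 8.07%, 10.8%, 7.68% and 6.67% of genes in these comparisons and downward for 5.07%, 5.87%, 11.6% and 9%. In COM minus WT, 3 members did not overlap (4.69% of genes upward and 5.69% downward), all but Nfil3. In KO minus WT these were Dbp and Hlf (7.83% and 9.4%), in COM minus KO Tef alone (4% and 3.34%) and in WT minus Control Dbp alone (17.1% and 10.5%). No member separated the groups in DSS minus Control (19.4% and 10.6%) or WT minus DSS (4.48% and 6.01%). Because the members were chosen with these libraries known, and Hlf passed the filter through KO and COM, nothing is read from these counts.

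**Figure D2:**
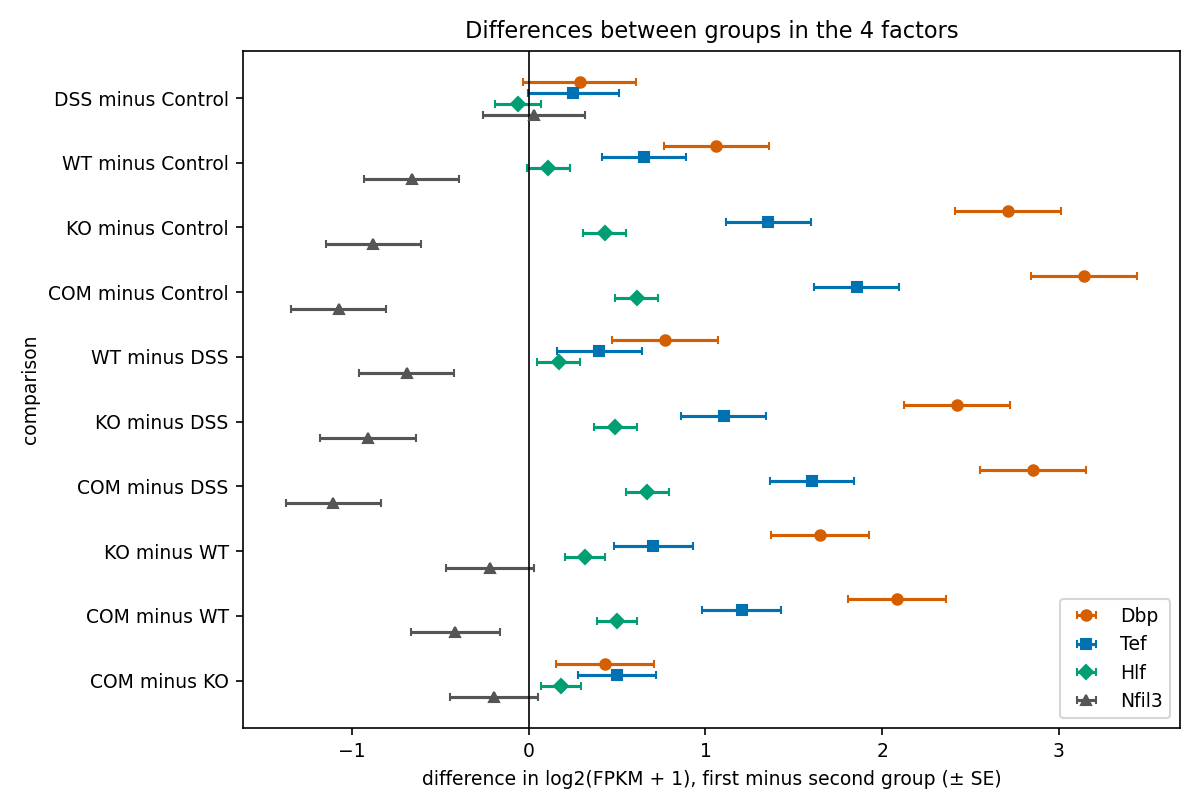
Difference in log2(FPKM + 1) for the 10 pairs of groups (vertical axis), first minus second group, with SE from limma as bars. Dbp shows the greatest differences, up to 3.14 in COM minus Control, and Nfil3 is below 0 in all comparisons except DSS minus Control, where it is 0.03.

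Dbp and Tef kept their sign in all 10 comparisons under every alternative processing and with each library left out. Nfil3 and Hlf did so in the comparisons of KO and COM with Control and DSS, with Hlf not testable at a filter of 5 FPKM. In DSS minus Control the direction of Hlf, at -0.06 ± 0.13, turned in 5 of 28 alternatives, and that of Nfil3, at 0.03 ± 0.29, in 4 of 29. Leaving out DSS 1 and COM 2, the hepatocyte-rich libraries, left Dbp at 2.70 and Tef at 1.58 for COM minus DSS and at 3.04 and 1.81 for COM minus Control. COM 2, which also had the highest adipocyte sum, held the highest Dbp, Tef, Hlf and Nfil3 of its group. Leaving out the acinar-rich libraries gave 2.33 for Dbp and 1.26 for Tef in COM minus DSS, and 1.96 and 0.71 in KO minus DSS.

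Group means of FPKM ran in the order Control, DSS, WT, KO, COM upward for Dbp and Tef and downward for Nfil3. This upward order was found in 0.588% of tested genes and the downward order in 0.618%. Hlf departed from it in that its mean was lower in DSS than in Control. On the log2(FPKM + 1) scale the mean of Nfil3 was out of order too, at 3.05 in DSS and 3.02 in Control. Neighbours in the order were separated without overlap only between WT and KO for Dbp and Hlf and between KO and COM for Tef. All other neighbours overlapped, and for Nfil3 no pair of neighbours was separated. The members were chosen with these libraries known, so nothing is read from the shares of genes in either order.

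The ratio of Dbp to Nfil3 transcripts spanned a wide range, and the proteins were not measured. The ratio of Dbp to Nfil3 in FPKM was 0.133 to 0.221 in Control, 0.124 to 0.488 in DSS, 0.285 to 3.65 in WT, 3.27 to 6.60 in KO and 5.69 to 9.08 in COM. Dbp was thus below Nfil3 in every Control and DSS library and above it in every KO and COM library. WT was divided, with WT 4 alone above 1. The ratio of Tef to Dbp went the other way, from 3.31 to 3.82 in Control and 2.45 to 3.79 in DSS through 1.74 to 2.68 in WT to 0.776 to 1.21 in KO and 0.883 to 1.15 in COM. Dbp and Tef were therefore at similar FPKM in KO and COM, while Tef exceeded Dbp in the 10 others. Tef made up 67.8 to 71.6% of the summed Dbp, Tef and Hlf in Control and 65.0 to 73.1% in DSS. That sum exceeded Nfil3 in Control 1 (5.28 against 4.58 FPKM) and Control 2 (7.90 against 7.15 FPKM). The same held in DSS 1 (8.04 against 7.13 FPKM) and DSS 2 (11.5 against 6.23 FPKM). The sum was below Nfil3 in Control 3 (6.93 against 10.8 FPKM) and DSS 3 (5.70 against 8.68 FPKM).

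**Figure D3:**
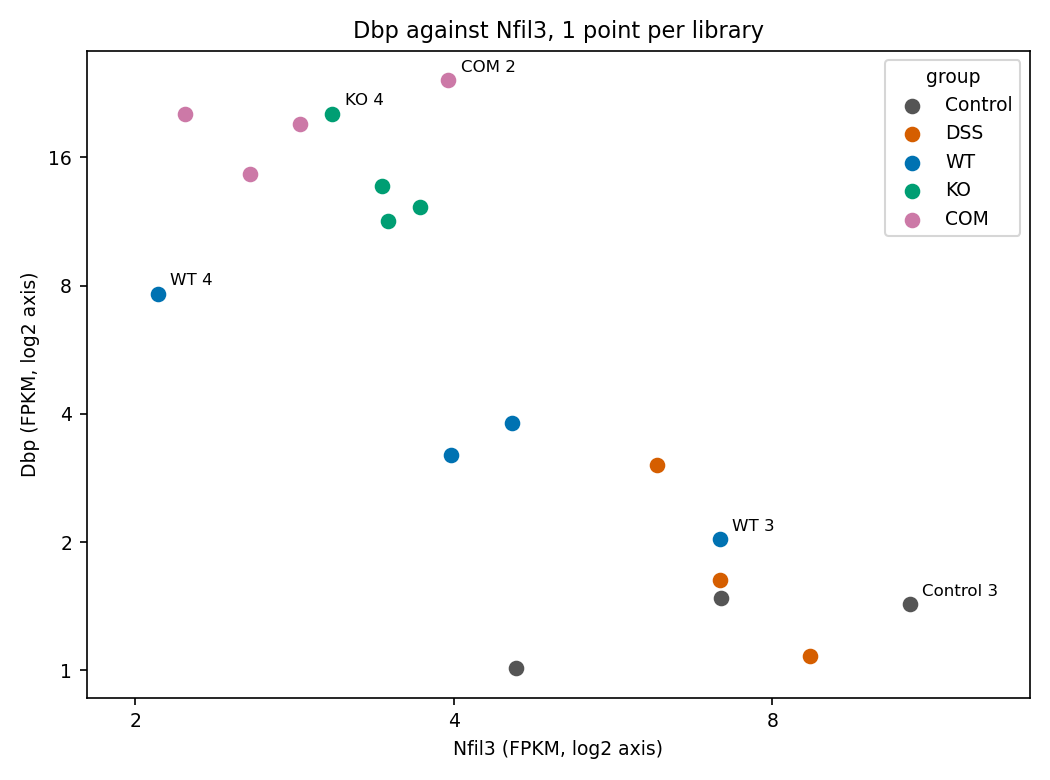
Dbp against Nfil3 in FPKM, both on log2 axes, with 1 point per library coloured by group. Control and DSS libraries sit at high Nfil3 and low Dbp, KO and COM libraries at the reverse, and the WT libraries spread between, from WT 3 at a ratio of 0.285 to WT 4 at 3.65.

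Within groups Tef moved with Dbp as well: the library with the highest Dbp also had the highest Tef in 5 of 5 groups, and the library with the lowest Dbp had the lowest Tef in 5 of 5. The library with the highest Dbp had the highest Hlf in 3 of 5 groups and the lowest Nfil3 in 3 of 5. Over the 18 libraries, Pearson r on log2(FPKM + 1) was 0.97 for Dbp and Tef, 0.92 for Dbp and Hlf and -0.81 for Dbp and Nfil3. After removal of group means r was 0.91, 0.65 and -0.50. Tef and Nfil3 had r of -0.80 (within groups -0.43), and Hlf and Nfil3 -0.67 (within groups -0.04). Values from 1 library share its RNA quality and tissue composition, so r serves as a measure of likeness.

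Genes most like each member were sought by r over the 18 libraries, among genes with a mean of at least 5 FPKM. After Tef, the closest to Dbp were Nr1d2 (0.90) and the cold-inducible RNA-binding protein gene Rbm3 (0.87). Those most opposed to Dbp were Alg1 (-0.91), a mannosyltransferase gene of protein glycosylation, Arntl (-0.88), Npas2 (-0.87) and Xab2 (-0.86). Tef was closest to Dbp, Nr1d2 (0.93), Tns4 (0.84) and Nr1d1 (0.84), and most opposed to Alg1 (-0.89), Leo1 (-0.88), Rbm10 (-0.88) and Arntl (-0.85). Hlf was closest to Dbp, Tef and Rbm3 (0.86) and most opposed to Alg1 (-0.91), Arntl (-0.84), Rbm10 (-0.84) and Xab2 (-0.82). Clock genes thus stood beside Dbp and Tef at both ends of this ranking. Nfil3 was closest to Alg1 (0.78), the heat shock factor gene Hsf1 (0.78), Pdrg1 (0.78) and Tmem101 (0.77). It was most opposed to Dsg2 (-0.89), a desmosomal cadherin gene, Rbm3 (-0.85), Ap1s3 (-0.82) and Dbp. Arntl was much less like Dbp within groups (-0.27) than over all libraries, while Nr1d2 kept an r of 0.60.

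The oscillator that drives these outputs was examined as a list of 20 genes, 17 of them tested. Limma called 4 in DSS minus Control (16.9% of all genes called), 5 in WT minus Control (23.1%), 6 in KO minus Control (5.14%) and 9 in COM minus Control (7.6%), at a Benjamini-Hochberg adjusted p under 0.05. By direction, 1 was higher and 3 lower in DSS (11.6% and 5.31% of all genes), 2 and 3 in WT (14.7% and 8.35%), 2 and 4 in KO (3.69% and 1.46%) and 5 and 4 in COM (5.26% and 2.34%). These 4 comparisons share the Control libraries. The list's median log2 difference was -0.02, 0.02, 0.04 and 0.13, beside 0.05, 0.05, 0.03 and 0.03 over all genes. In COM minus Control the higher genes included those for the repressors of Arntl: Nr1d1 rose from 11.7 ± 6.35 to 71.0 ± 8.41 FPKM (log2 difference 2.66 ± 0.34, adjusted p = 0.0012) and Nr1d2 from 6.62 ± 3.07 to 24.0 ± 1.01 FPKM (1.81 ± 0.24, adjusted p = 0.0016). Per3, a period gene, rose by 1.07 ± 0.21 (adjusted p = 0.0093). The BMAL1 gene Arntl fell from 34.9 ± 10.2 to 16.8 ± 2.69 FPKM (-0.98 ± 0.15, adjusted p = 0.0032). Cry1, which encodes an inhibitor of the BMAL1 complex, fell from 21.0 ± 3.02 to 5.26 ± 0.747 FPKM (-1.81 ± 0.19, adjusted p = 0.00050). With only the 2 groups compared in the model, which leaves fewer residual degrees of freedom, the Cry1 call held and those of Nr1d1, Nr1d2, Per3 and Arntl were lost.

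In KO minus Control the calls included Nr1d1 (2.26 ± 0.34) and Nr1d2 (1.33 ± 0.24) upward and Cry1 (-1.42 ± 0.19), Arntl (-0.75 ± 0.15) and Npas2 (-0.61 ± 0.15) downward. In WT minus Control, Nr1d1 (2.08 ± 0.34) and Nr1d2 (0.98 ± 0.24) rose and Cry1 (-1.15 ± 0.19) and Cry2 (-0.47 ± 0.13) fell. In DSS minus Control, Nr1d1 (1.32 ± 0.36) rose and Cry1 (-0.91 ± 0.20) and Cry2 (-0.44 ± 0.14) fell. Nr1d1 was thus called in DSS minus Control, where Dbp differed by 0.29 ± 0.32. The Cry2 call in DSS minus Control held in 9 of 29 alternatives, that of Nr1d1 in 23 (not without DSS 1 or DSS 2) and that of Npas2 in KO minus Control in 21 (not without Control 1, Control 2, KO 1 or KO 2). With only the 2 groups compared in the model, every oscillator call named here for DSS and KO minus Control was lost, and in WT minus Control Nr1d1 and Cry1 were still called while Nr1d2 and Cry2 were not.

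Library by library, Nr1d1 read 4.48, 14.1 and 16.5 FPKM in Control, 30.2, 36.2 and 18.3 FPKM in DSS and 50.0, 42.5, 39.8 and 56.0 FPKM in WT. It read 56.2, 34.7, 55.8 and 74.2 FPKM in KO and 63.3, 64.4, 80.0 and 76.2 FPKM in COM. Control lay below all other groups and COM above all libraries but KO 4, while WT and KO overlapped. Arntl read 42.3, 39.0 and 23.3 FPKM in Control, 30.8, 29.7 and 29.9 FPKM in DSS and 24.8, 25.2, 26.3 and 24.8 FPKM in WT. It read 19.1, 20.1, 21.0 and 19.0 FPKM in KO and 15.7, 13.5, 19.6 and 18.2 FPKM in COM. For Arntl the 8 KO and COM libraries lay below the 10 others. The share of all genes divided in this way was not counted, so nothing is read from this division.

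**Figure D4:**
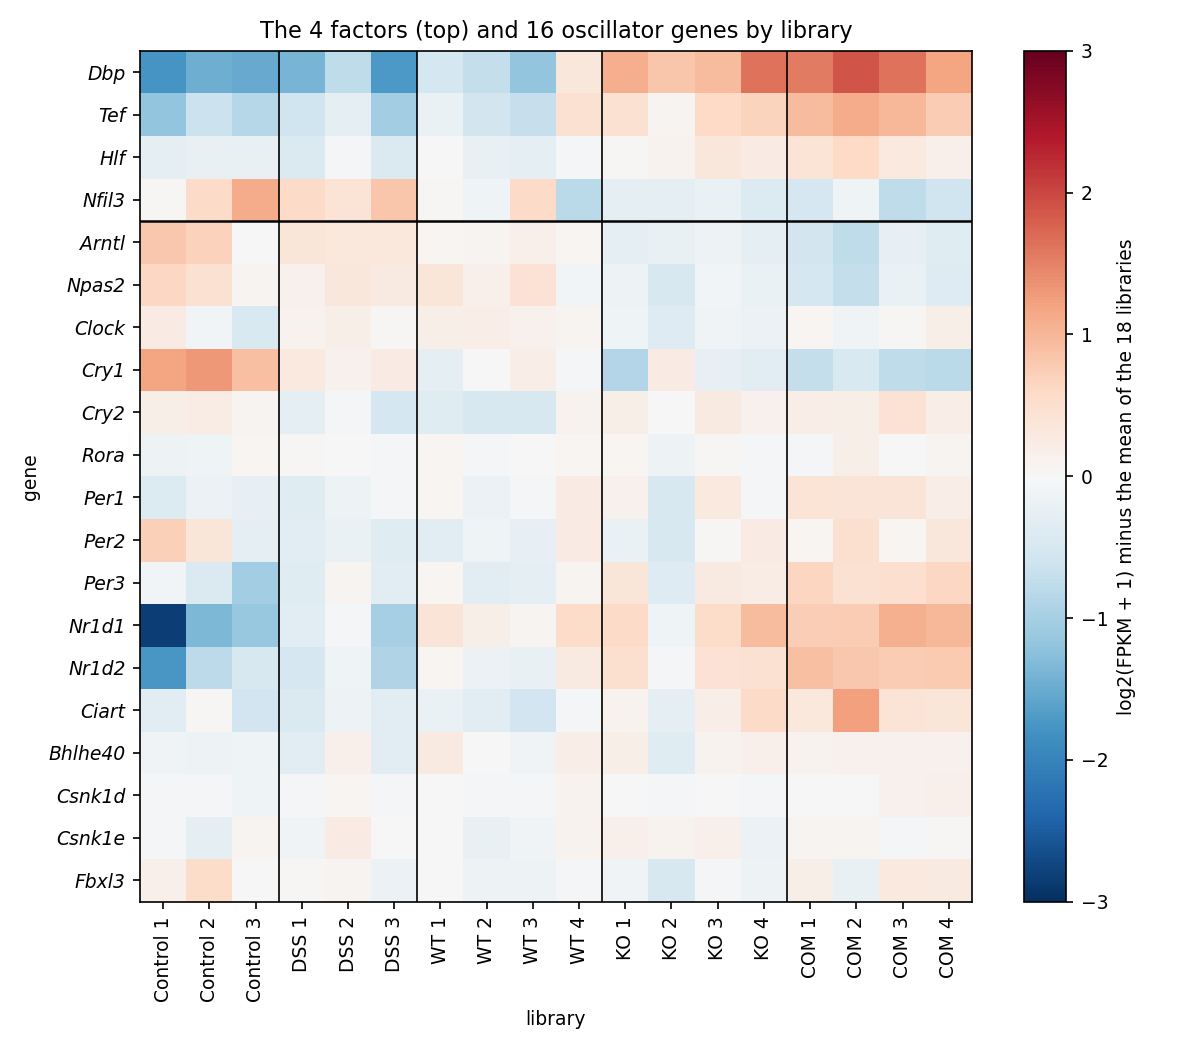
Log2(FPKM + 1) minus the mean of the 18 libraries (colour) for the 4 factors, above the line, and 16 of the 17 tested oscillator genes, by library. Nr1d1 and Nr1d2 run with Dbp from low in Control to high in COM, Arntl, Npas2 and Cry1 run opposite, and Clock, Rora, Csnk1d and Csnk1e show paler colours.

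Against DSS and between strains, limma called no oscillator gene. Those at an unadjusted p under 0.05 were 1 of 17 in WT minus DSS (4.77% of all genes), 7 in KO minus DSS (16.3%), 11 in COM minus DSS (11%), 4 in KO minus WT (20.1%), 8 in COM minus WT (11.2%) and 5 in COM minus KO (10.8%). In COM minus DSS the smallest p belonged to Nr1d2 (1.32 ± 0.24, adjusted p = 0.092) and Arntl (-0.82 ± 0.15, adjusted p = 0.092), followed by Npas2, Cry1, Nr1d1 and Cry2 with adjusted p of 0.122 to 0.177. Of all 13263 genes, limma called 22 in KO minus DSS (0.166%), 2 in COM minus DSS (0.0151%), 1 in COM minus WT (0.00754%), 110 in KO minus WT (0.829%), 4 in COM minus KO (0.0302%) and 0 in WT minus DSS (0%). The 2 genes of COM minus DSS were Dbp and Tef, and the single gene of COM minus WT was Dbp. These are members, chosen with earlier results of these libraries known, so nothing is read from their calls. Without the hepatocyte-rich or without the acinar-rich libraries, no gene was called in either comparison.

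Genes reported as targets of the PAR bZIP factors or of NFIL3, mostly in liver, formed a list of 23, of which 16 were tested. Limma called 5 in DSS minus Control (2 higher, 3 lower), 6 in WT minus Control (2 higher, 4 lower), 3 in KO minus Control (2 higher, 1 lower) and 5 in COM minus Control (4 higher, 1 lower), where 16.9%, 23.1%, 5.14% and 7.6% of all genes were called. The list's median log2 difference was -0.40, -0.32, -0.11 and -0.06 in these comparisons, beside medians of all genes of 0.03 to 0.05. Nr1d1, Per1 and Per3 belong to both this list and the oscillator. Per1, a period gene, rose by 0.61 ± 0.15 in COM minus Control (adjusted p = 0.022). The drug efflux pump gene Abcb1a fell in DSS (-0.73 ± 0.22) and WT (-0.82 ± 0.21), as did Por, the electron donor of cytochromes P450 (-0.67 ± 0.18 and -0.60 ± 0.17). Pck1, an enzyme gene of gluconeogenesis, fell in WT minus Control (-1.23 ± 0.25, adjusted p = 0.0038). With only the 2 groups compared in the model, the calls of Per1 in COM and of Abcb1a and Por in DSS and WT were lost, and that of Pck1 in WT held. The targets did not line up with Dbp as 1 block: the mean of Por was lowest in DSS and WT.

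Against DSS and between strains none of the 16 targets was called. At an unadjusted p under 0.05 there were 2 in WT minus DSS, 2 in KO minus DSS, 6 in COM minus DSS, 2 in KO minus WT, 5 in COM minus WT and 3 in COM minus KO, beside 4.77%, 16.3%, 11%, 20.1%, 11.2% and 10.8% of all genes. The median log2 difference of the 16 was 0.52 in COM minus DSS and 0.34 in COM minus WT, beside -0.02 and -0.01 over all genes. Por had means of 58.8 ± 6.89 FPKM in COM and 38.9 ± 1.53 FPKM in DSS (0.58 ± 0.17, adjusted p = 0.25). Pck1 had means of 61.5 ± 4.74 FPKM in COM and 28.3 ± 6.66 FPKM in WT (1.12 ± 0.23, adjusted p = 0.187).

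Other clock-controlled genes (15 listed, 14 tested) gave 3 calls in DSS minus Control, 3 in WT minus Control, 1 in KO minus Control and 2 in COM minus Control, and none in the other comparisons. Of all genes, 16.9%, 23.1%, 5.14% and 7.6% were called in these 4. Their medians were 0.11, 0.12, -0.09 and -0.03. Tspan4, a tetraspanin gene, rose in all 4, from 2.38 ± 0.756 FPKM in Control to 4.68 ± 1.01 in DSS, 5.14 ± 0.652 in WT, 5.77 ± 0.664 in KO and 6.30 ± 0.807 in COM. Pfkfb3, which encodes a regulator of glycolysis, and Hif3a, a hypoxia-inducible factor gene, rose in DSS (1.18 ± 0.28 and 0.52 ± 0.13) and WT (1.30 ± 0.26 and 0.73 ± 0.12). Leo1, a subunit of the PAF1 complex, fell in COM (-0.38 ± 0.09, adjusted p = 0.0185). With the 3 clock lists joined, 42 genes were tested. Called were 10, 12, 8 and 12 against Control in the order DSS, WT, KO and COM, and 0 in the other 6 comparisons. At an unadjusted limma p under 0.05 there were 2 in WT minus DSS (4.77% of all genes), 10 in KO minus DSS (16.3%) and 15 in COM minus DSS (11%). Between strains there were 11 in KO minus WT (20.1%), 16 in COM minus WT (11.2%) and 6 in COM minus KO (10.8%). The DSS calls fell to 2 without the acinar-rich libraries and to 1 without the squamous-rich libraries (DSS 2, WT 2, WT 4, KO 3 and COM 3, highest in the mean log2 level of squamous genes). KO and COM calls fell to 4 and 6 without the squamous-rich libraries. With only the 2 groups compared in the model the counts were 0 for DSS, 9 for WT, 0 for KO and 2 for COM minus Control; Tspan4, Pfkfb3 and Hif3a were still called in WT, and the calls of Tspan4 and Leo1 in COM were lost.

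Genes tied to the lymphoid role of Nfil3 were 15, of which 8 were tested. Limma called 3, 2, 2 and 3 of these in DSS, WT, KO and COM minus Control, 1 in KO minus DSS and 1 in KO minus WT, where 16.9%, 23.1%, 5.14%, 7.6%, 0.166% and 0.829% of all genes were called. The list's medians were 0.14, 0.14, 0.13, 0.06, -0.31 and -0.02. Zbtb16, which encodes PLZF, a factor of innate lymphoid precursors that is also induced by glucocorticoids, fell in KO minus DSS (-0.98 ± 0.17, adjusted p = 0.0399, where 0.0679% of all genes were called lower), KO minus WT (-0.93 ± 0.15, adjusted p = 0.0256), KO minus Control (-0.96 ± 0.17, adjusted p = 0.0053) and COM minus Control (-0.88 ± 0.17, adjusted p = 0.0080). It read 3.35, 3.12 and 2.47 FPKM in Control, 3.35, 2.95 and 2.76 FPKM in DSS and 3.17, 2.04, 3.16 and 3.23 FPKM in WT. KO libraries held 1.48, 0.48, 1.40 and 0.93 FPKM and COM libraries 0.95, 1.43, 0.97 and 1.31 FPKM. The 8 KO and COM libraries lay below the 10 others, a division whose share among all genes was not counted. Of 28 alternatives, Zbtb16 was called in 10 for KO minus DSS, 21 for KO minus WT, 27 for KO minus Control and 26 for COM minus Control. Leaving out 1 library ended the call in KO minus DSS for 11 libraries and in KO minus WT for 4 (WT 1, WT 3, KO 2 and KO 4), with limma adjusted p over all alternatives from 0.0174 to 0.403 and 0.0127 to 0.333. Il7r, the interleukin-7 receptor gene, rose in DSS (0.93 ± 0.20), WT (0.93 ± 0.19) and COM (0.80 ± 0.19) against Control, and Ccr6, a chemokine receptor gene, in DSS (1.18 ± 0.31). With only the 2 groups compared in the model, the calls of Zbtb16 in KO minus WT and Il7r in WT minus Control held, and the other calls of Zbtb16, Il7r and Ccr6 were lost. Summed leukocyte markers (8 genes, none at 0) were 16.8 to 74.6 FPKM in Control, 122 to 130 in DSS, 68.7 to 111 in WT, 49.9 to 103 in KO and 60.6 to 105 in COM, and their part in these results was not tested.

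Genes of lipid uptake and storage linked to epithelial Nfil3 (10 listed, 8 tested) gave 1, 2, 0 and 1 calls in DSS, WT, KO and COM minus Control (16.9%, 23.1%, 5.14% and 7.6% of all genes) and none elsewhere. Dgat1, which makes triglyceride, fell in DSS (-0.53 ± 0.10), WT (-0.46 ± 0.09) and COM (-0.32 ± 0.09, adjusted p = 0.0498), and the desaturase gene Scd2 rose in WT (0.78 ± 0.26). The Dgat1 call in COM held in 5 of 29 alternatives and the Scd2 call in WT in 14. Among the C/EBP relatives, a neighbouring bZIP family that binds similar sequences, 5 of 6 were tested. Ddit3 (CHOP), a stress-induced member, fell against Control in DSS (-0.38 ± 0.09), WT (-0.47 ± 0.08), KO (-0.61 ± 0.08) and COM (-0.40 ± 0.08). Cebpg was lower in KO than in WT, at 25.2 ± 0.133 and 29.7 ± 0.644 FPKM (-0.23 ± 0.04, adjusted p = 0.0376), a call that held in 17 of 29 alternatives. With only the 2 groups compared in the model, the calls of Dgat1 and Ddit3 in WT minus Control and of Cebpg held, and those of Scd2 and of Dgat1 and Ddit3 in the other comparisons were lost. No other C/EBP relative was called in any comparison.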

How the data were processed

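Whole-colon RNA of 18 libraries was sequenced (DNBSEQ, per the labels' protocols), and the authors deposited the result as FPKM of 18349 genes. Groups came from the library titles, and the genome build was mm10, per the submitters' processing notes. Not given in the sources used here are the aligner, the annotation and the FPKM estimator, and read numbers are unknown. Library totals ranged from 517933 to 558590 FPKM. FPKM are not counts, so log2(FPKM + 1) was fitted in limma 3.58.1 (R 4.3.3) with 1 model of 5 groups over all 18 libraries and a mean-variance trend. The 13263 genes that reached 1 FPKM in 3 or more libraries were tested two-sided, with Benjamini-Hochberg adjustment within a comparison and calls at 0.05. Differences on this scale understate the change of low genes. The script was tested on simulated data.

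The 4 members and all lists were chosen with earlier results of these data known. From each list up to 6 genes were named per comparison, called ones with the greatest absolute log2 difference first, then those with the smallest p. The 4 genes with the highest and the 4 with the lowest r were named as most like each member. Some genes that this rule takes are not reported here. Symbols matched 18230 identifiers in RefSeq (GRCm38.p6). Alternatives were a pseudocount of 0.1, no filter, a filter of 5 FPKM, quantile normalization, rescaling to TPM, a model of the compared groups alone, a replicate block, and each library left out. Leaving out sets of libraries with high or low marker genes was added after seeing the data.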

Additional observations from a re-analysis of the deposited data

Results flagged for a closer look

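In groups of 4 libraries, a value was singled out where its gap to the nearest other library exceeded 0.829 of the whole range of the group, and 3 of 51 gene and ratio groups did so. Chance singles out about 1 in 20 such groups. The ratio of Dbp to Nfil3 was 3.65 in WT 4, above 0.285 to 0.837 in the other WT libraries. WT 4 had both the highest Dbp and the lowest Nfil3 of its group. This flag depends on the unlogged ratio. As log2 of (Dbp + 1) over (Nfil3 + 1), WT 1 to WT 4 read -0.21, -0.25, -1.42 and 1.48. On that scale the gap of WT 4 does not exceed 0.829 of the range. Nr1d2, one of the clock repressors, was 13.0 FPKM in KO 2, below 18.1 to 18.9 FPKM in the other KO libraries. Zbtb16 was 2.04 FPKM in WT 2, below 3.16 to 3.23 FPKM in the other WT libraries.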

How the results depend on the processing

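The direction of Dbp, Tef, Hlf and Nfil3 in KO and COM against Control and against DSS held under every alternative run. Other directions held except those of Hlf in DSS minus Control, WT minus Control and WT minus DSS and of Nfil3 in DSS minus Control and KO minus WT. Alternatives without sets of libraries were chosen after seeing the data. With a pseudocount of 0.1 the log2 difference of Dbp was 1.46 for WT, 3.35 for KO and 3.80 for COM minus Control, and 2.93 for KO and 3.38 for COM minus DSS. For Hlf it was 0.78 for KO and 1.06 for COM minus Control, 0.36, 0.93 and 1.21 for WT, KO and COM minus DSS, and 0.57 and 0.85 for KO and COM minus WT. TPM gave 0.82 and 0.89 for Hlf in COM minus Control and COM minus DSS. Quantile normalization gave -0.36, -0.055, 0.27 and 0.44 for Hlf in DSS, WT, KO and COM minus Control. Without the acinar-rich libraries, DSS minus Control and WT, KO and COM minus DSS were 0.81, 0.25, 1.96 and 2.33 for Dbp, 0.60, 0.055, 0.71 and 1.26 for Tef and 0.19, -0.079, 0.19 and 0.42 for Hlf. Without the squamous-rich libraries Nfil3 was -0.28 in WT minus Control and -0.64 in KO minus WT. Hlf could not be tested at a filter of 5 FPKM. Of the 42 clock list genes, 0, 0, 2, 2, 1 and 5 were called with only the groups compared in DSS, KO and COM minus Control, KO and COM minus DSS and KO minus WT. Without the acinar-rich libraries 2 were called in DSS minus Control. Without the squamous-rich libraries 1, 4, 6 and 1 were called in DSS, KO and COM minus Control and COM minus DSS. Without the low-Hox libraries (Control 3, DSS 3 and KO 2) 1, 2 and 6 were called in COM minus DSS, KO minus WT and COM minus WT, and with quantile normalization 1 in KO minus WT.

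Of all genes, those called in COM minus WT (1) and COM minus DSS (2) became 0 and 1 with a pseudocount of 0.1, 2 and 1 with no filter, 0 and 10 with only the groups compared, 0 and 35 without the squamous-rich, 31 and 5 without the low-Hox, 0 and 0 without the acinar-rich and 0 and 0 without the hepatocyte-rich libraries. Quantile normalization gave 4 in COM minus DSS. With the replicate number as a block (replicate block) the count in COM minus DSS was 1, and that in COM minus WT stayed 1. Same-numbered libraries did not deviate together (13 of 33 pairs over 0.1, r from -0.473 to 0.392), so the numbers were not taken to pair them. Leaving out 1 library gave 0 to 37 genes in COM minus WT and 1 to 36 in COM minus DSS, both highest without Control 3. For the clock lists it gave 6 to 12 in DSS minus Control (6 without DSS 1 or DSS 3), 0 to 2 in KO minus DSS, 0 to 4 in COM minus DSS, 0 to 7 in KO minus WT and 0 to 3 in COM minus WT, with the highest of these last 4 without Control 3. The cause of these shifts was not tested. Read depth is unknown, and Hlf, near 1 FPKM, is the value it limits most.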

Other observations

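Among reported targets of the PAR bZIP factors, 3 genes, chosen after their values were seen, were highest in the hepatocyte-rich libraries. The drug-metabolising gene Cyp3a11 read 35.6 FPKM in COM 2, 2.62 FPKM in DSS 1 and at most 0.71 FPKM elsewhere. Cyp2a5, a coumarin hydroxylase gene, read 6.01 FPKM in COM 2 and 0.29 FPKM in DSS 1 and was listed at 0 in the 16 others. The carboxylesterase gene Ces3a read 18.3 FPKM in COM 2, 1.32 FPKM in DSS 1 and at most 0.11 FPKM elsewhere. None of these 3 genes reached 1 FPKM in 3 libraries, so none was tested.

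Glucocorticoid-induced genes, a group that also follows the day in many tissues, were listed as 11 and all tested. Limma called Klf9, a Krüppel-like factor, in WT minus Control (0.43 ± 0.14, adjusted p = 0.042, called in 11 of 29 alternatives), Zbtb16 and Per1 as given in the report, and no other member in any comparison. Fkbp5, a chaperone gene strongly induced by glucocorticoids, differed by -0.37 ± 0.34 in COM minus Control (adjusted p = 0.528), and Tsc22d3 (GILZ) by -0.05 ± 0.21 (adjusted p = 0.912).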
